A study of Mus musculus with 8 samples.

Results

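A set of 40 mouse genes of the cell cycle and DNA replication was followed across the annotated cell types of the prefrontal cortex (PFC) and striatum of wild-type (WT) and Setd1a heterozygous mice. The set was chosen by gene symbol, and every symbol was found among the 31053 genes of the expression matrices. By role it held 15 S phase genes, 18 genes of G2 and mitosis (G2/M), 6 D cyclins and cyclin-dependent kinases that act from G1 onward, and the chromatin gene Hmgb2. Between 39 and 40 of them had at least 1 unique molecular identifier (UMI, a tag that counts an RNA molecule once) in the annotated cells of each library.

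Single cells of 8 libraries were profiled on the 10x Chromium platform, 2 WT and 2 Setd1a+/- libraries from each tissue. Each library pooled tissue of 2 male mice, and all mice were C57BL/6N; the labels give an age of 8 to 10 weeks and the study's methods an older range. The mutant allele was a CRISPR-Cas9 frameshift deletion ahead of the SET domain, carried by all cells of the mouse, and WT littermates served as controls. The labels call the striatal samples NAc, while the design text places them in dorsal and ventral striatum.

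A dividing cell passes through G1, S, G2 and M. D cyclins with Cdk4 or Cdk6 release E2F transcription factors in G1. E2F then switches on the genes that copy DNA, and a later program, read from promoters with CHR and CCAAT elements, supplies the proteins that build the spindle and separate the chromosomes. In the adult mouse forebrain, neural stem cells and neuroblasts of the subventricular zone beside the striatum divide, and so do oligodendrocyte progenitor cells (OPC) throughout the tissue. Neurons and mature oligodendrocytes do not.

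The libraries held 15154268 to 26277553 UMIs in all. They held 1508 to 2680 annotated cells in the PFC and 2495 to 4361 in the striatum, and the median cell of a library had 2302.5 to 3042 UMIs. Any pair of libraries shared 1 to 24 cell barcodes, where 4.47 to 23.9 would be shared by independent draws. Setd1a was at 8.45 and 11.2 UMI counts scaled to 1000000 (CPM) in the PFC WT libraries and at 5.59 and 9.33 in the Setd1a+/- ones, which overlapped. In the striatum it was at 13.4 and 15.2 CPM in WT and at 9.16 and 12.5 in Setd1a+/-, without overlap. The 3′ tags lie outside the deletion, so these values do not check the labels. CPM here is the number of UMIs of a gene, summed over the annotated cells of a type in a library, per 1000000 UMIs of those cells. It is not divided by gene length and is compared between cell types, not between genes.

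The cell types were those of the authors' annotation, 8 in the PFC and 10 in the striatum. The type named NB, for neural stem cells and neuroblasts, was annotated in the striatum only and held 437 cells. Sox11, Dlx1, Dlx2, Dcx and Cd24a each had their highest mean level in NB, and summed to 3537 and 3465 CPM in the WT and to 3912 and 3758 CPM in the Setd1a+/- libraries. Hemoglobin RNA stood at 5421 CPM in the NB cells of striatal WT library 2 against 27.2 to 61.8 CPM in the other 3 libraries. OPC carried Pdgfra, Cspg4 and Vcan at their highest levels, in 1337 cells of the PFC and 1441 of the striatum. In PFC OPC hemoglobin RNA was at 3868 and 27.4 CPM in the WT libraries and 53.3 and 2019 in the Setd1a+/- ones. In striatal OPC it was at 1949 and 136 CPM in the WT libraries and 2704 and 123 in the Setd1a+/- ones.

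The set was concentrated in NB. Of the 40 genes, 37 had their highest mean CPM in NB, as did 10.1% of the 15124 genes with at least 50 UMIs. For 35 genes every NB library stood above every library of every other type in either tissue, against 3.12% of all those genes. For 23 the NB mean was at least 10 times that of the next type, against 0.800% of all genes. The authors' clusters were built from variable genes, to which these genes can belong, so the levels are given as a description with no test. The 3 genes with another peak were Ccnd1, Ccnd3 and Ccne1. Together the 40 genes made up 24595, 23203, 22982 and 24128 CPM of NB RNA in WT 1, WT 2, Setd1a+/- 1 and Setd1a+/- 2, an order kept for all lists of 4 values below. In OPC they made up 1374 to 1644 CPM in the PFC and 1277 to 1862 CPM in the striatum.

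**Figure D1:**
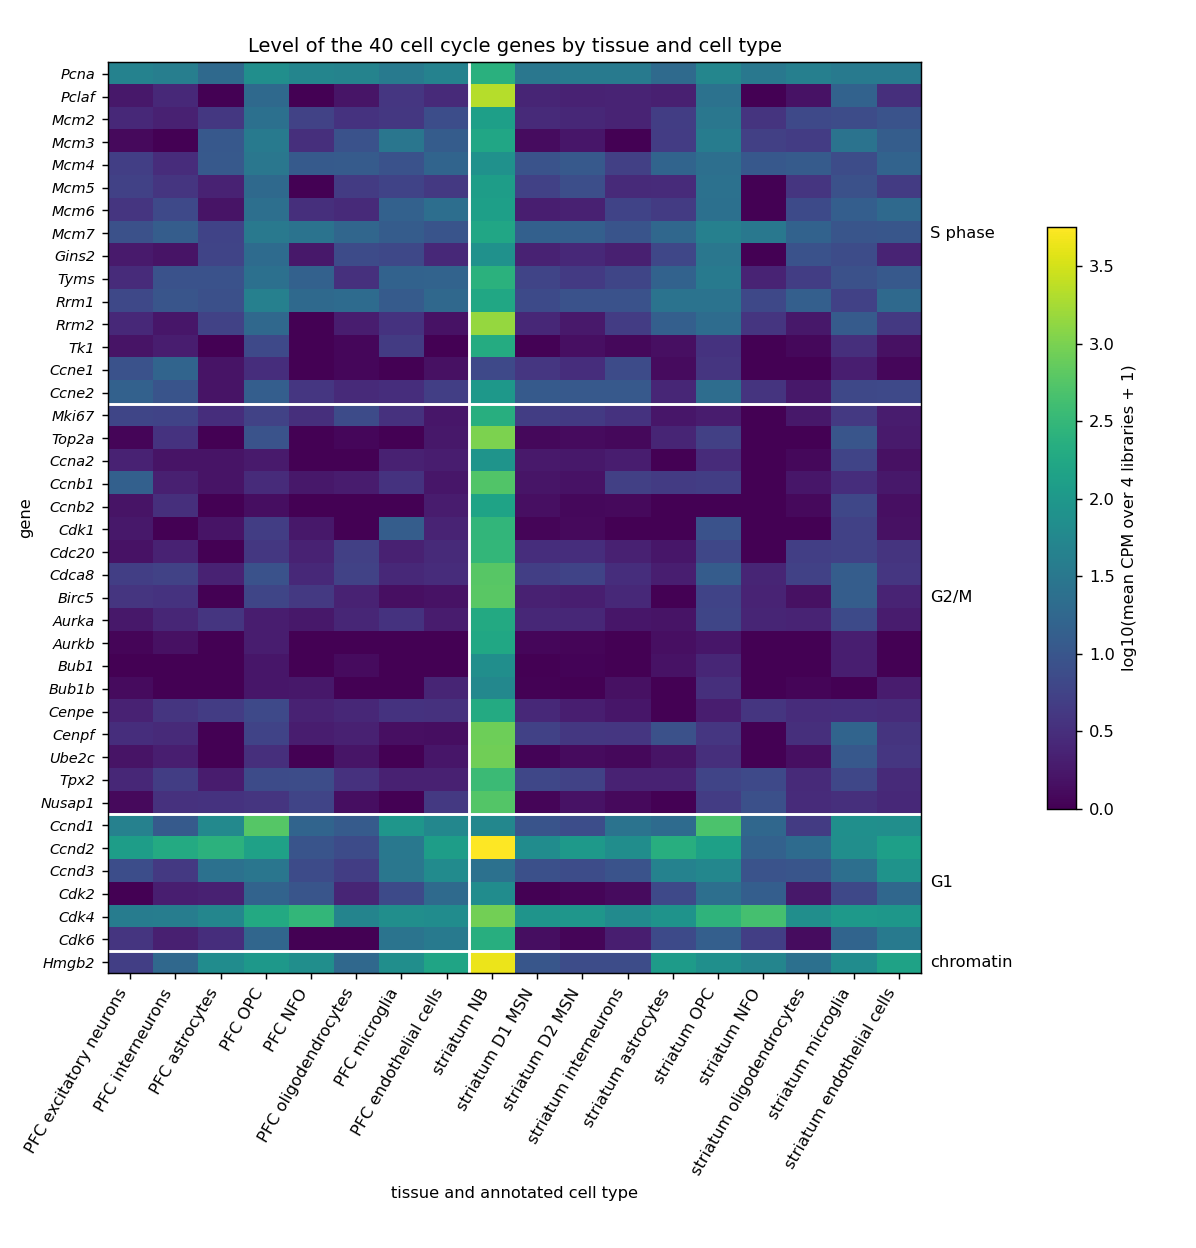
Mean level of each of the 40 genes (rows, grouped by role) in the 18 tissue and cell type groups (columns), as log10 of the mean CPM of 4 libraries plus 1, from dark (0) to bright. The NB column is the brightest for 37 genes, while Ccnd1 is brightest in OPC and Ccnd3 in endothelial cells.

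The S phase genes were high in NB and measurable in OPC. In NB they summed to 4905, 5732, 4804 and 6228 CPM (mean 5417 ± 682, SD, n = 4 libraries), and in OPC to 371 ± 87.6 in the PFC and 390 ± 168 in the striatum. Of the 15 genes 14 peaked in NB, 12 of them without overlap with any other type, and OPC of either tissue was next for all 14. The NB mean was 2.55 to 87.2 times the next, with a median of 4.61.

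Pclaf, which encodes a factor bound to the replication clamp, was at 1863, 2173, 2023 and 2511 CPM in NB. In OPC it was at 22.5, 10.4, 21.7 and 18.7 CPM in the PFC and at 22.8, 10.2, 28.3 and 37.0 in the striatum. The NB and OPC libraries were thus far apart for Pclaf. Rrm2, the regulated small subunit of ribonucleotide reductase, was at 1375, 1509, 1032 and 1826 CPM in NB and reached 43.2 CPM in any OPC library. Tk1, thymidine kinase, was at 173, 253, 175 and 220 CPM and reached 13.4 elsewhere. These 3 genes were the S phase members with a mean more than 10 times that of the next type.

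The other S phase genes differed less between NB and OPC. Pcna, the clamp itself, was at 204, 241, 209 and 318 CPM in NB and at 63.0, 52.1, 92.8 and 77.7 in PFC OPC. The 6 subunits of the replicative helicase, Mcm2 to Mcm7, had NB means of 76.8 to 165 CPM and OPC means of 18.4 to 41.9. Tyms, thymidylate synthase, was at 241, 276, 277 and 204 CPM in NB, and Rrm1, the large subunit of ribonucleotide reductase, at 180, 188, 170 and 139. Gins2, part of the helicase complex, and Ccne2, an E cyclin, overlapped with OPC, since a striatal OPC library (Setd1a+/- 2) reached 67.8 and 61.7 CPM. Ccne1, the other E cyclin, was low everywhere. Its highest level was in PFC interneurons, at 14.3, 17.9, 11.1 and 16.5 CPM, from 24 UMIs in all.

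The G2/M genes separated NB from every other annotated type. All 18 peaked in NB without overlap, at 18.3 to 156 times the next type with a median of 48.1. They summed to 7844, 6677, 7093 and 6806 CPM (mean 7105 ± 522, SD, n = 4 libraries), against 60.5 ± 28.2 in PFC OPC and 64.0 ± 52.7 in striatal OPC. Top2a, the topoisomerase that untangles sister chromatids, was at 1242, 969, 929 and 897 CPM. Ube2c, which hands ubiquitin to the anaphase-promoting complex, was at 998, 775, 1039 and 628 CPM. No library of another annotated type exceeded 17.2 CPM of Top2a or 16.8 CPM of Ube2c. PFC barcodes without an annotation that met the cell filters and held 5 or more S phase and G2/M genes, 47 in all, had G2/M sums of 10690, 8738, 8317 and 8448 CPM and S phase sums of 5787, 3703, 3260 and 1933 in the 4 libraries, with OPC markers at 2064, 1703, 1547 and 1270 CPM and NB markers at 1216, 1037, 193 and 221. NB markers were at 189 to 220 CPM in annotated PFC OPC and at 3465 to 3912 in NB. These barcodes were chosen for these genes and are in no annotated type.

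The members act in distinct machines, and each machine showed the same preference. The chromosomal passenger genes Birc5, Cdca8 and Aurkb had NB means of 613 ± 9.0, 598 ± 52.7 and 168 ± 17.9 CPM (SD, n = 4). Cdk1, the mitotic kinase, was at 343, 264, 311 and 261 CPM, and its cyclin partners Ccna2, Ccnb1 and Ccnb2 had means of 87.4, 532 and 151. Aurka, a spindle pole kinase, varied most relative to its mean, at 170, 106, 167 and 318 CPM, and its activator Tpx2 was at 377, 341, 342 and 383. Of the kinetochore genes, Cenpf was at 957, 740, 885 and 742 CPM and Cenpe at 268, 182, 219 and 106. The spindle checkpoint kinases Bub1 and Bub1b had means of 71.4 and 55.4 CPM. Cdc20, which activates the anaphase-promoting complex, had a mean of 308 ± 40.2, and the spindle protein Nusap1 of 555 ± 55.5. Mki67, whose product coats mitotic chromosomes, was at 261, 176, 267 and 204.

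**Figure D2:**
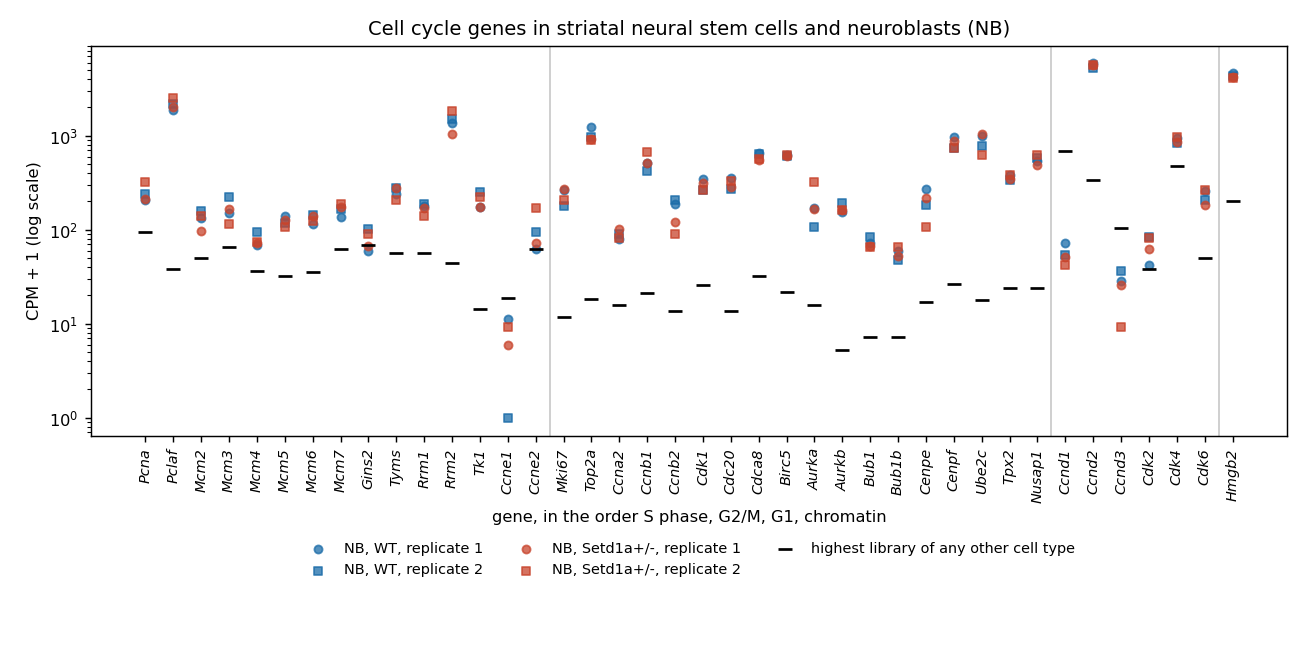
Level of each gene in the 4 NB libraries (points, CPM + 1 on a log axis, coloured by genotype) beside the highest library of any other cell type (bar). All 18 G2/M genes lie wholly above that bar, while Gins2, Ccne2, Ccne1, Ccnd1 and Ccnd3 do not.

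Promoters of both groups were read for letters that E2F-like and CHR-like elements share. RefSeq windows of 300 bases (250 before and 50 after the start, build GRCm38.p6) were found for 32 of the 40 genes, in 34 windows. The letters TTTGAA (CHR-like) were in 10 of 15 G2/M windows and 1 of 13 S phase windows, against 17.9% of all 32851 windows. The letters TTTNNCGC (E2F-like) were in 6 of 13 S phase windows and in 1 of 15 G2/M windows, that of Cdk1, against 5.17% of all. The CCAAT box was in 13 of 15 and 10 of 13, against 37.4%. Both strands were searched, and the motifs can overlap. No window was found for Mcm4, Gins2, Ccne2, Ccna2, Aurkb, Tpx2, Ccnd1 and Ccnd2.

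The 150 bases before the start of 4 genes show the arrangement, in the sense of the gene, with matches on either strand of any of these motifs in capitals. Top2a and Ube2c carry the CHR-like and CCAAT letters, Mcm6 carries 3 E2F-like matches, 2 of which overlap, and Cdk1 carries all 3 motifs. Their positions are chr11:99024190-99024339 on the minus strand for Top2a, chr2:164769779-164769928 on the plus strand for Ube2c, chr10:69352913-69353062 on the minus strand for Cdk1 and chr1:128359706-128359855 on the minus strand for Mcm6.
Top2a: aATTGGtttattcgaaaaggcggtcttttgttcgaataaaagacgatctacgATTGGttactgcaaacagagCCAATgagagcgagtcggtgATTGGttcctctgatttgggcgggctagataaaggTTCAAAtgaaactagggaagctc
Ube2c: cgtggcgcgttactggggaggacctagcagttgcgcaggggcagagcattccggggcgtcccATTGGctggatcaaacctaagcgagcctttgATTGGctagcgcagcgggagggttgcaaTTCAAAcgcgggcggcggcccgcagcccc
Cdk1: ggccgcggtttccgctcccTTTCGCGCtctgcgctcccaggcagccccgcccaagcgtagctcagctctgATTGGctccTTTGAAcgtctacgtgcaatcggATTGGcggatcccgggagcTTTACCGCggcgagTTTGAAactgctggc
Mcm6: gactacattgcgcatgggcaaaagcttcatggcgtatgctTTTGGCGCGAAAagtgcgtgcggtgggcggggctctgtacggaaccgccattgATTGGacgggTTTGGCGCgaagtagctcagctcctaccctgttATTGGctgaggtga

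A match describes letters, not a site where a factor was bound. In the RNA the G2/M sum was 1.31 times the S phase sum in NB and 0.16 times in annotated OPC of each tissue. By library the G2/M sums were 37.8 to 102 CPM in PFC OPC and 24.8 to 142 in striatal OPC. Free G2/M RNA in empty droplets was at 29.4 to 57.9 CPM in the PFC and 39.1 to 82.4 in the striatum. These ranges overlapped, and the part of free RNA in this ratio was not tested. By library the ratio was 1.6, 1.16, 1.48 and 1.09 in NB and 0.08 to 0.22 in OPC. Striatal microglia were next to NB, at 0.97, 0.80, 0.40 and 0.50. In them the kinetochore gene Cenpf was at 25.2, 25.8, 8.93 and 0 CPM and Birc5 at 21.0, 12.9, 13.4 and 0, and 4 microglia held 10 or more of the 33 S phase and G2/M genes. The library at 0 had only 24 microglia. The macrophage markers Mrc1, Pf4 and Cd163 summed to 462, 314, 326 and 0 CPM in the same libraries, and their part in these values was not tested.

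Hmgb2 and 4 of the 6 G1 genes also peaked in NB without overlap. Hmgb2, a chromatin protein that bends DNA, was at 4599, 4281, 4246 and 4092 CPM, 27.8 times the next type, PFC endothelial cells. Ccnd2, a D cyclin, was at 5903, 5291, 5663 and 5649 CPM, 22.1 times the next, PFC astrocytes at 203, 213, 333 and 268. Cdk4, which the D cyclins activate, was at 950, 846, 855 and 962 CPM, and newly formed oligodendrocytes (NFO) were next, at 477, 444, 481 and 344 in the striatum. Cdk6, its close relative, was at 255, 206, 184 and 261 CPM and reached 49.2 in any other library. Cdk2, the kinase of the E cyclins, was at 40.7, 82.2, 61.8 and 81.5 CPM in NB against up to 37.0 elsewhere.

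Among single NB cells most carried many of the genes at once. At least 3 of the 40 genes had a UMI in 98.1, 100, 96.7 and 100% of NB cells (105, 63, 214 and 55 cells). Counting only the 33 S phase and G2/M genes, the shares were 94.3, 90.5, 89.3 and 100%. After each cell was thinned to 1000 UMIs they were 88.6, 88.9, 81.3 and 94.5%. The median NB cell held 15, 14, 13 and 13 of the 33, and 8 after thinning in each library.

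Cells with 5 or more of the 33 genes were mostly NB, and cells with 3 or more were not. Of annotated cells 402 NB had 3 or more of the 33 genes, 381 had 5 or more and 305 had 10 or more. All other types together had 512, 89 and 10 such cells. With at least 2 genes of a set as the mark, 316 NB cells (72.3%) held both sets, 66 (15.1%) held S phase genes only, 29 (6.64%) G2/M genes only and 26 (5.95%) neither. Phase was not assigned to cells beyond these counts.

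NB cells were divided by how many of the 33 genes they held, and markers of neurons and stem cells did not all go 1 way. In NB cells with 0 to 2 of the 33 genes, with 3 to 9 and with 10 or more, Stmn2, a microtubule regulator of growing neurites, was at 2084, 832 and 432 CPM. Tubb3, a neuronal tubulin, was at 1856, 1033 and 602, and Dcx, a microtubule protein of migrating neuroblasts, at 472, 279 and 226. Sox2, a stem cell factor, was at 65.1, 157 and 231. The neuroblast gene Sox11 was at 2231, 2320 and 2317, the interneuron lineage gene Dlx1 at 293, 509 and 441 and Dlx2 at 16.3, 63.6 and 68.4. The growth factor receptor gene Egfr was at 65.1, 117 and 72.8 and Nes, an intermediate filament of stem cells, at 16.3, 9.79 and 19.6. In the class of 0 to 2 genes Sox2 and Egfr rest on 4 UMIs each and Dlx2 and Nes on 1 each. Nes rests on 2 UMIs in the class of 3 to 9. Hmgb2 was at 749, 1928 and 5093 CPM. Ccnd2 was at 5927, 6955 and 5364. The classes held 35, 97 and 305 cells with medians of 1637, 1969 and 2865 UMIs. These are levels pooled over 4 libraries, described without a test. The class of 0 to 2 held 6, 6, 23 and 0 cells of WT 1, WT 2, Setd1a+/- 1 and Setd1a+/- 2, and the part of the library in these differences was not tested.

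In OPC a minority of cells held the S phase genes. At least 3 of the 33 genes were seen in 6.51% of PFC cells in WT 1 (22 of 338, Wilson 95% interval 4.34 to 9.66), 2.68% in WT 2 (12 of 447), 6.27% in Setd1a+/- 1 (22 of 351) and 10.9% in Setd1a+/- 2 (22 of 201, 7.34 to 16.0). In the striatum the shares were 5.36% (26 of 485), 5.88% (23 of 391), 5.10% (23 of 451) and 14% (16 of 114, 8.83 to 21.6). Both mutant libraries numbered 2 had the highest share of their tissue and the fewest OPC. Thinned to 1000 UMIs, the shares were 2.96, 1.34, 4.56 and 5.97% in the PFC and 2.27, 2.05, 2.88 and 12.3% in the striatum. Free S phase RNA in empty droplets was at 99.2 to 110 CPM in the PFC and 97.9 to 135 in the striatum. The S phase genes of OPC summed to 256 to 469 and 289 to 641 CPM. The part of free RNA in these shares was not tested.

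The same shares in mature oligodendrocytes, which do not divide, were 0 to 0.867% in the PFC and 0 to 0.528% in the striatum, at medians of 2056 and 2076 UMIs per cell against 1651 and 1625 in OPC. In PFC excitatory neurons the share was 5.51% at a median of 6546 UMIs and 0 of 2775 cells after thinning, which allows up to 0.108%. Endothelial cells of the PFC went from 27 cells to 0 of 1562, which allows up to 0.192%. Counting all 40 genes, 25.2 ± 4.45% of PFC OPC and 25.3 ± 4.37% of striatal OPC (SD, n = 4 libraries) had 3 or more. OPC with at least 2 genes of a set were 131 with S phase genes only, 3 with G2/M genes only and 12 with both in the PFC, and 131, 0 and 10 in the striatum.

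**Figure D3:**
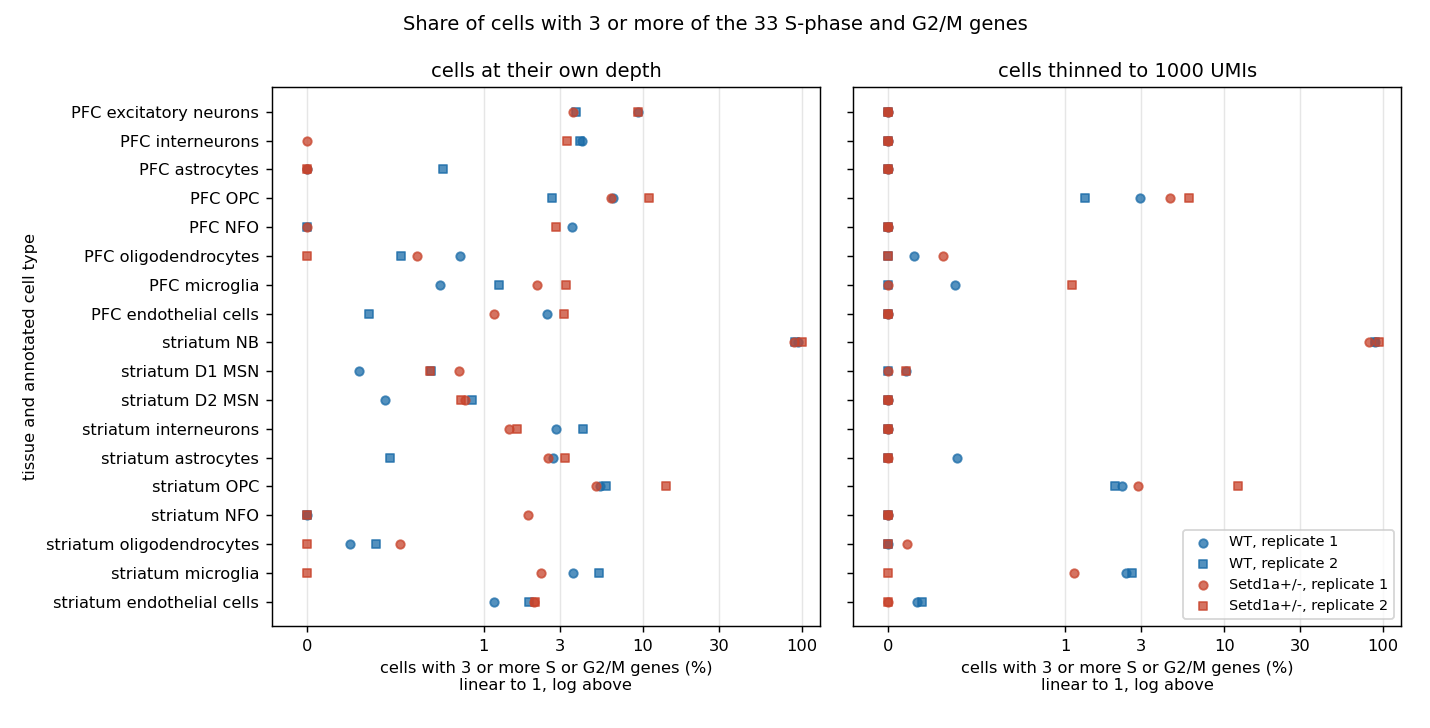
Share of cells with 3 or more of the 33 S phase and G2/M genes in each library and cell type (percent, axis linear near 0 and logarithmic above), as deposited and with every cell thinned to 1000 UMIs. NB lie at 81.3 to 100% in both, OPC at 1.34 to 14%, and excitatory neurons drop to 0 when thinned.

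Outside the annotation, 47 PFC barcodes that met the authors' stated cell filters held 5 or more of the 33 genes, against 32 annotated PFC OPC.

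The few OPC with several of the genes held much of the RNA of some. OPC with at least 3 other S phase or G2/M genes carried 87.8% of the 41 Pclaf UMIs of PFC OPC and 92.5% of the 53 in the striatum. For Pclaf these cells were 5.68 and 5.97% of OPC. For Rrm2 the shares were 61.1 and 45.7%, for Mcm3 47.8 and 50%. Pcna at 25.9 and 23.5% and Rrm1 at 21.1 and 29.8% had most of their UMIs in OPC without 3 others. Ccnd1 had 8.16 and 7.32% of its UMIs in such cells, where such cells held 6.95 and 6.60% of all UMIs, and Cdk4 had 8.22 and 8.95%.

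Genes outside the 33 were also compared between these OPC. Hmgb2 was at 364 ± 117 CPM in OPC with 3 or more of the 33 genes and at 62.8 ± 21.4 in the others (SD, n = 8 libraries), higher in 8 of 8 libraries. Cdk2 was higher in 7 of 8, at 60.7 against 14.6 CPM, and Rbl1, a retinoblastoma relative that E2F induces, in 7 of 8, at 30.4 against 3.23. Btg2, an antiproliferative gene, was higher in 0 of 8, at 3.54 against 21.9, while Cdkn1b, the kinase inhibitor p27, was higher in 7 of 8, at 67.5 against 42.7, Rb1 in 6 of 8, at 24.7 against 19.7, and Cdkn2a in 3 of 8, at 10.7 against 2.25. In OPC with 3 or more genes Btg2 rests on 1 UMI, Cdkn2a on 4, Rb1 on 7, Rbl1 on 9, Cdk2 on 20 and Cdkn1b on 21, and in 1 library Btg2 was at 0 in both classes. Cdk2 in striatal WT 1 counts as higher at 21.57 against 21.56 CPM. The OPC marker Pdgfra was at 869 ± 234 and 924 ± 257 CPM, higher in 2 of 8.

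**Figure D4:**
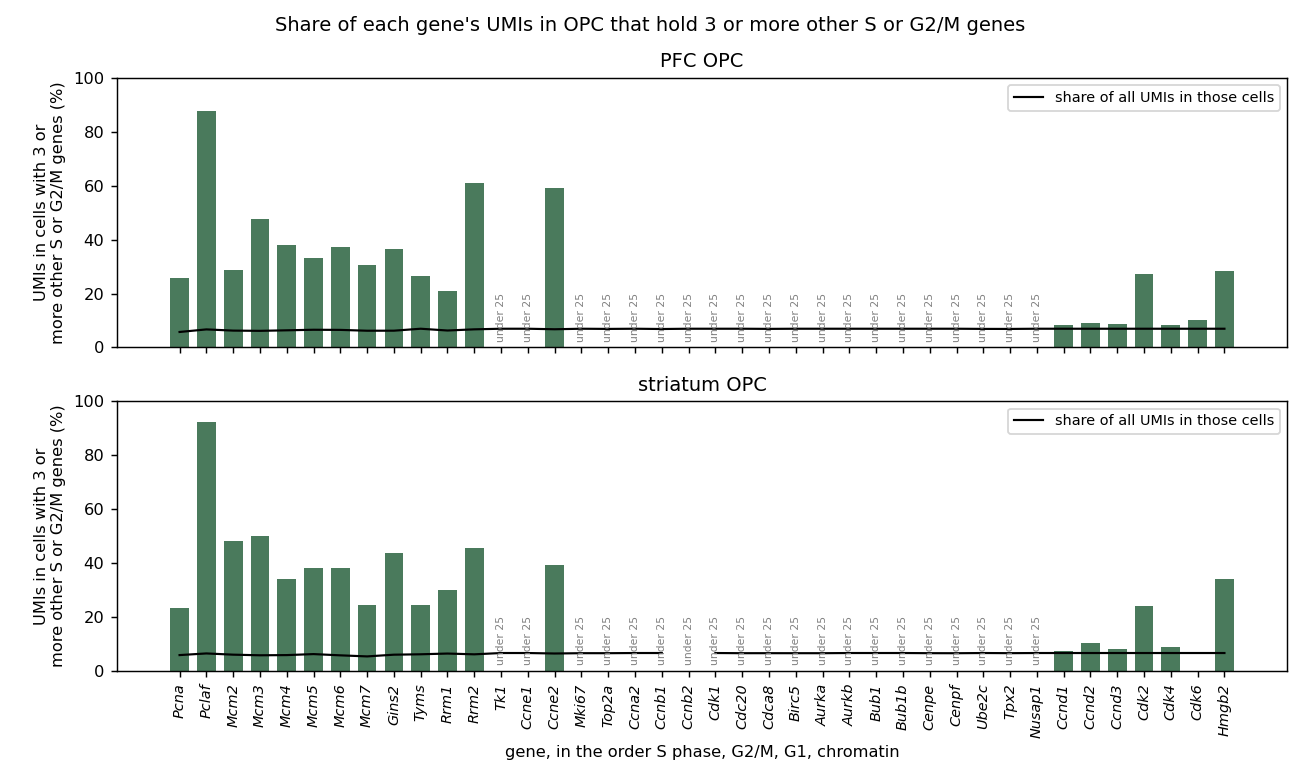
Share of each gene's OPC UMIs (percent) that lay in OPC with 3 or more other S phase or G2/M genes, by tissue, with a line at the share of all UMIs in such cells and no bar for genes with under 25 UMIs. Among the genes plotted Pclaf stands highest at 87.8 and 92.5%, and Ccnd1, Ccnd2 and Cdk4 lie near the line.

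The 3 D cyclins had different homes. Ccnd1 peaked in OPC, at 679, 537, 507 and 570.5 CPM in the PFC and 578, 428, 531 and 419 in the striatum, and these overlapped between the tissues. Microglia were next, at 119, 81.1, 81.0 and 87.8 CPM in the PFC, and in NB it was at 71.3, 52.9, 50.1 and 40.8. Ccnd2 peaked in NB, as above, and astrocytes followed, at the PFC levels given above and at 197, 181, 275 and 234 CPM in the striatum. Ccnd3 peaked in endothelial cells, at 59.6, 68.9, 61.6 and 67.5 CPM in the PFC and 103, 80.2, 86.5 and 63.7 in the striatum, which overlapped. Mature oligodendrocytes held little of any of them, with means of 11.1, 6.13 and 3.82 CPM in the PFC for Ccnd1, Ccnd2 and Ccnd3. Droplets with 10 to 100 UMIs, which hold free RNA, carried Ccnd2 at 55.8 to 115 CPM and Ccnd1 at 11.5 to 53.6.

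**Figure D5:**
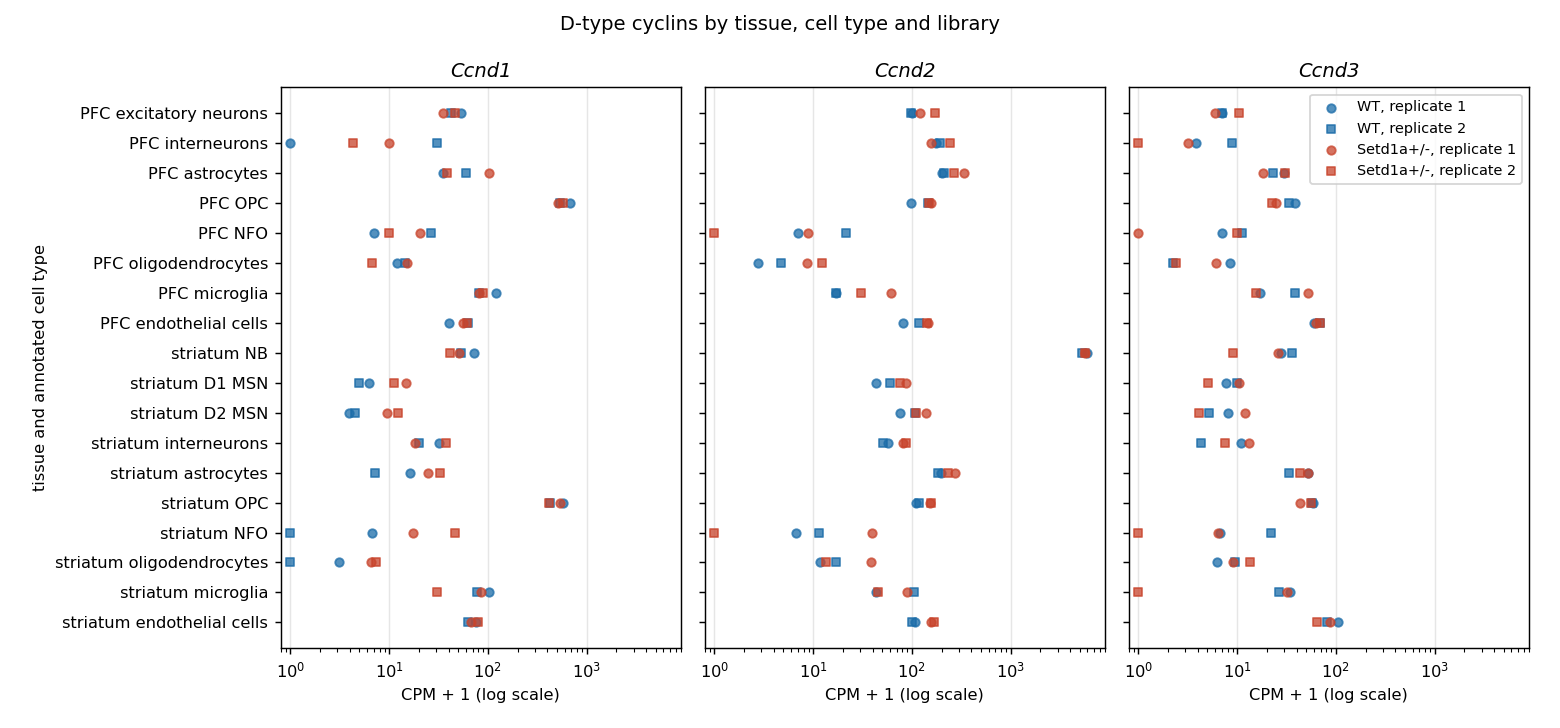
Levels of Ccnd1, Ccnd2 and Ccnd3 in every cell type and library (CPM + 1, log axis), with WT and Setd1a+/- libraries marked. OPC are highest for Ccnd1, NB for Ccnd2 and endothelial cells for Ccnd3.

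Heterozygosity of Setd1a was compared within each cell type on summed UMIs with edgeR (quasi-likelihood test, 2 against 2 libraries). A gene was called at a false discovery rate (FDR) under 0.05 with a fold above 1.5 in the PFC and above 2 in the striatum, the study's cutoffs. In the PFC none of 71 tests of the members was called, against 0.00% of all 51145 gene tests. At an unadjusted p under 0.05 there were 3, and 1.70% of all tests. Rrm2 in OPC was at 10.5, 9.13, 21.7 and 29.5 CPM (log2 fold change 1.35 ± 0.52, SE). Gins2 in OPC was at 10.5, 13, 27.6 and 26.8 CPM (1.19 ± 0.47), and Mcm5 in excitatory neurons had genotype means of 2.11 and 6.36 CPM (1.53 ± 0.59). Mcm5 was at 1.85 and 2.37 CPM in WT and 3.64 and 9.08 in Setd1a+/-, and without Setd1a+/- replicate 2 its log2 fold change was 0.71. The groups did not overlap for these 3 genes, which were picked at p under 0.05, and the share of all genes without overlap is not given. Their edgeR FDR was at least 0.999. Rrm2 rests on 7, 7, 11 and 11 UMIs and Gins2 on 7, 10, 14 and 10, and both passed the filter on low counts only through the mutant libraries, where they were high. Mcm5 had 1 WT and 2 mutant libraries at or above the filter's 2.37 CPM, so it too needed a mutant library to pass.

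In the striatum none of 134 tests was called, against 0.00544% of all 73479. At an unadjusted p under 0.05 there were 12, and 2.62% of all tests, and the edgeR FDR of each of the 12 was at least 0.999. In NB itself Ccnb2 was the only member with p under 0.05, at 187, 206, 120 and 89.7 CPM (log2 fold change -0.76 ± 0.27, SE), beside 3.03% of all genes tested in NB. NB made up 2.41, 1.56, 5.64 and 2.20% of the annotated cells of the 4 libraries. Simulated 2-fold changes were called for 6.56% and 4-fold changes for 94.4% of genes in NB. A 2-fold change lies on the striatal fold cutoff itself, so a part of these changes misses it whatever the spread. Without Setd1a+/- replicate 1, which leaves 1 mutant library, the log2 fold change of Aurka in NB was 1.2, while with all libraries it was 0.62.

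Ccnd2 accounted for 5 of the 12. It was at 42.0, 59.6, 85.4 and 75.3 CPM in D1 medium spiny neurons (MSN; log2 fold change 0.69 ± 0.20) and at 74.7, 106.5, 138 and 109.7 in D2 MSN (0.48 ± 0.21). With the replicate block the edgeR FDR of Ccnd2 in D1 MSN was 0.00558 at a log2 fold change of 0.69, below the 2-fold cutoff. In interneurons it was at 56.0, 50.2, 81.3 and 85.8 CPM (0.70 ± 0.22), and in endothelial cells at 107.5, 98.7, 154 and 168 (0.66 ± 0.20). Both mutant libraries stood above both WT libraries in these 4 types, which were picked at p under 0.05. The share of all genes without overlap is not given. In oligodendrocytes Ccnd2 was at 10.6, 16.1, 37.2 and 12.6 CPM (1.42 ± 0.37), from 20, 19, 87 and 2 UMIs, and there the groups overlapped.

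Of 134 striatal tests of the members 88 had a positive log2 fold change. The share of all genes positive in every type is not given. The log2 fold change of Ccnd2 was positive in 9 of 9 striatal types tested, which all came from the same 4 libraries. Free Ccnd2 RNA moved the same way, with 63.1 and 84.2 CPM in the empty droplets of the WT and 115 and 88.1 in those of the Setd1a+/- libraries, and Setd1a+/- 1 held 214 of the 437 NB cells. The part of free RNA in the result was not tested. In oligodendrocytes the log2 fold change of Ccnd2 was 1.58 without Setd1a+/- replicate 2 and -0.08 without Setd1a+/- replicate 1, each with 1 mutant library left.

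Of the other 6 outside NB, Ccnd1 had 2 in the spiny neurons. It was at 5.29, 3.93, 14 and 10.3 CPM in D1 MSN (log2 fold change 1.43 ± 0.35, SE) and at 2.92, 3.55, 8.59 and 11.4 in D2 MSN (1.67 ± 0.43). Both mutant libraries stood above both WT libraries, at levels below those of free Ccnd1 RNA, 15.9, 11.5, 20.5 and 19.4 CPM. These 2 types were picked at p under 0.05, and the share of all genes without overlap is not given. With the replicate number as a block, Ccnd1 in D1 MSN was called (1.43, edgeR FDR = 0.0298). Ccne2 in OPC was at 5.07, 2.92, 15.4 and 61.7 CPM (2.60 ± 0.78). Without Setd1a+/- replicate 1, which leaves 1 mutant library, its log2 fold change was 3.86. These levels of Ccne2 rest on 4, 2, 12 and 10 UMIs. Ccne2 in OPC and Ccnd1 in D2 MSN passed the filter on low counts only through the mutant libraries, where they were high. Hmgb2 in D1 MSN had a log2 fold change of 0.82, Pcna in D2 MSN of 0.54 and Cdk4 in D2 MSN of -0.41.

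The shares of cells with 3 or more genes were compared between the genotypes as values only, since 2 against 2 libraries cannot reach the threshold in an exact test. The mean share of NB with 3 or more of the 40 was 99% in WT and 98.4% in Setd1a+/-, that of PFC OPC 25.7 and 24.8%, and that of striatal OPC 23.8 and 26.9%. With the 33 S phase and G2/M genes the OPC means were 4.60 and 8.61% in the PFC and 5.62 and 9.57% in the striatum, but Setd1a+/- 1 lay within or below the WT range in each tissue. After thinning to 1000 UMIs the means were 2.15 and 5.26% in the PFC and 2.16 and 7.58% in the striatum, and both mutant libraries stood above both WT libraries in each tissue. In the striatum Setd1a+/- 1 was at 2.88% (13 of 451) beside 2.27% (11 of 485) in WT 1, within the counting error of each, and Setd1a+/- 2 had 114 OPC.

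The tissues were compared in the 7 cell types annotated in both, with genotype as a covariate over 8 libraries. Tissue cannot be told apart from dissection and from papain digestion, which was longer for the striatum. Of 58 tests of members 4 were called (edgeR FDR under 0.05, fold above 1.5), against 7.37% of all 45946 gene tests. Ccnd2 was lower in striatal interneurons, at 56.0, 50.2, 81.3 and 85.8 CPM, than in those of the PFC at 174, 193, 155 and 245 (log2 fold change -1.48 ± 0.20, SE, edgeR FDR = 0.000113). Ccnd1 was lower in striatal astrocytes, at 15.5, 6.11, 23.7 and 31.9 CPM against 33.8, 58.7, 103 and 38.0 (-1.65 ± 0.41, edgeR FDR = 0.0130). Neither pair of groups overlapped, and the share of all genes without overlap is not given. For Ccnd1 the closest values were 31.9 CPM in striatal Setd1a+/- 2, which held 31 astrocytes, and 33.8 in PFC WT 1.

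Ccnd2 was higher in the striatum in the other 2 calls. In oligodendrocytes it was at 10.6, 16.1, 37.2 and 12.6 CPM against 1.74, 3.69, 7.65 and 11.4 in the PFC (log2 fold change 2.07 ± 0.38, SE, edgeR FDR = 0.0129). In microglia it was at 42.0, 103, 89.3 and 44.8 CPM against 16.0, 16.2, 60.8 and 29.3 (1.41 ± 0.45, edgeR FDR = 0.0418), and in both types the tissues overlapped. Striatal Setd1a+/- 2 held 67 oligodendrocytes, with 2 UMIs of Ccnd2, and 24 microglia. The microglia call was lost with DESeq2 (FDR = 0.0694) and without any of 6 single libraries (FDR 0.0599 to 0.251). Its log2 fold change was then 0.91 to 1.59. The oligodendrocyte call was lost without striatal WT replicate 2 (FDR = 0.0676) or Setd1a+/- replicate 1 (0.185), at log2 fold changes of 1.81 to 1.94. NB, where Ccnd2 peaks, were annotated only in the striatum. Free Ccnd2 RNA in empty droplets was at 55.8 to 96.7 CPM in the PFC and 63.1 to 115 in the striatum, above all the oligodendrocyte values. Interneurons of the PFC, at 155 to 245 CPM, lay above that range, and those of the striatum, at 50.2 to 85.8, and microglia of both tissues, at 16.0 to 103, did not. Free Ccnd1 RNA was at 49.9, 36.7, 37.6 and 53.6 CPM in the PFC and 15.9, 11.5, 20.5 and 19.4 in the striatum, lower in the striatum as in astrocytes. The part of free RNA in these 4 calls was not tested. The macrophage markers Mrc1, Pf4 and Cd163 summed to 462, 314, 326 and 0 CPM in striatal microglia and to 14.2, 108, 10.1 and 0 in PFC microglia. The ependymal markers Foxj1 and Tmem212 summed to 321, 145, 529 and 733 CPM in striatal astrocytes and to 2.41, 3.67, 0 and 0 in PFC astrocytes. The part of these cells in the microglia and astrocyte differences was not tested.

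At an unadjusted p under 0.05 there were 18 of the 58, and 20.8% of all tests. No member was called in OPC, NFO or endothelial cells. Over the 7 types 7.37% of all gene tests were called, and the share within these types alone is not given. Of OPC genes with an unadjusted edgeR p under 0.05, Ccnd3 had means of 28.8 ± 7.53 CPM in the PFC and 53.0 ± 7.08 in the striatum (SD, n = 4; log2 fold change 0.84, edgeR FDR = 0.129). Cdk4 had 192 ± 60.8 and 270 ± 11.9, and Pcna, Rrm1 and Hmgb2 had log2 fold changes of -0.47, -0.76 and -0.58. In NFO Cdk4 was at 302 ± 74.8 and 437 ± 63.8 CPM. In endothelial cells the log2 fold changes were -0.40 for Pcna, 0.43 for Ccnd1, 0.60 for Cdk4 and 0.43 for Ccnd3. Free Cdk4 RNA in empty droplets was at 25.9, 45.6, 20.2 and 46.2 CPM in the PFC and 76.4, 79.7, 74.1 and 75.4 in the striatum. It was higher in the striatum, as Cdk4 was in OPC, NFO and endothelial cells, and its part in these differences was not tested. In OPC simulated 2-fold differences were called for 55.2% of genes.

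The genotype effects were also compared between the tissues. None of 62 tests of the interaction of genotype and tissue was called, against 0.00% of all 49915. Ccne2 in OPC was the only member with an unadjusted p under 0.05, as were 2.21% of all tests. Its levels were 8.99, 11.7, 11.9 and 16.1 CPM in the PFC and 5.07, 2.92, 15.4 and 61.7 in the striatum (difference of log2 fold changes 2.34 ± 1.07, SE, edgeR FDR = 0.9998). The striatal levels rest on 4, 2, 12 and 10 UMIs, and striatal Setd1a+/- 2 held 114 OPC. In the striatal genotype test Ccne2 passed the filter on low counts only through the mutant libraries, where it was high.

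Other genes of the pathway were listed by role. Of 34 further S phase genes 31 peaked in NB, such as Uhrf1, which helps to copy DNA methylation, at a mean of 118 CPM. Of 41 further G2/M genes 39 did, 38 of them without overlap, such as Spc25, a kinetochore subunit, at 664 CPM or 154 times the next type. Of all genes with at least 50 UMIs, 10.1% peaked in NB and 3.12% did so without overlap. Between genotypes none of these 2 lists was called with edgeR in either tissue (72 and 40 tests in the PFC, 115 and 98 in the striatum), where 0.00% and 0.00544% of all gene tests were. At an unadjusted p under 0.05 there were 2 and 1 in the PFC and 0 and 5 in the striatum, against 1.70% and 2.62% of all tests. Of the 5, 4 were among 40 tests in NB, beside 3.03% of all genes tested there. These were Plk1, Tacc3, Cdca3 and Racgap1 (log2 fold changes -0.66, -0.63, -0.51 and -0.52), named after their values were seen. The other was Nuf2 in astrocytes, at 1.07. In NB 10 of 40 G2/M and 6 of 23 S phase genes had positive log2 fold changes, with medians of -0.11 and -0.09 against 0.004 for all genes. Between tissues 0 of 62 tests of S phase genes and 3 of 28 of G2/M genes were called, against 7.37% of all gene tests. The 3 were Smc2 in interneurons and Nuf2 and Tubb4b in astrocytes, named after their values were seen.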

How the data were processed

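The authors deposited 10x UMI counts, made with Cell Ranger 3.0.2 on mm10 and analysed with Seurat 3.2.0 per the submitters' notes, with an annotation of cells with 800 genes or more and no more than 10% of UMIs from mitochondria. The study's methods describe no doublet step for these data, and no doublet caller was run. Counts of annotated cells were summed by library and type, and tested with edgeR 4.0.16 (quasi-likelihood test, TMM scaling, filterByExpr at min.count 10, FDR over all genes tested in a type) in R 4.3.3. The scripts were tested on simulated data, drawn with a common dispersion for all genes of a type, unlike the data. DESeq2 1.42.0, DESeq2 size factors, no filter, a replicate block and leaving out each library were alternatives. The study's methods put 1 WT and 1 mutant sample in each biological replicate. Same-numbered samples deviated together, with median correlations of 0.37 over 8 PFC types and 0.18 over 10 striatal types. Libraries pool 2 mice each, so p-values measure the spread between pools. Thinning drew 1000 UMIs per cell without replacement. Intervals are Wilson 95% and, like the limit of 3 counts for a share of 0, cover counting error only. Members and lists were chosen with earlier results of these data known. Named genes were the members called or, where a type had no call, those with an unadjusted p under 0.05. The planned naming of 10 other genes within NB could not be applied, since Setd1a+/- library 2 had no NB cell with under 3 of the 33 genes. The number of columns from other series was 0. Python 3.11.15 was used for summaries and figures. Some items are not reported here.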

Additional observations from a re-analysis of the deposited data

Results flagged for a closer look

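Barcodes that met the authors' stated cell filters but carried no annotation held S phase and G2/M RNA in the PFC. No test above uses them, and above they were set beside annotated OPC and NB only as a description. There were 144, 564, 123 and 73 such barcodes in PFC WT 1, WT 2, Setd1a+/- 1 and Setd1a+/- 2. With 5 or more of the 33 genes there were 11, 13, 13 and 10, and with 10 or more 10, 11, 10 and 9, against 2 annotated PFC OPC with 10 or more. In the striatum there were 2, 0, 1 and 0 with 5 or more. In the PFC barcodes with 5 or more, the OPC markers Pdgfra, Cspg4 and Vcan summed to 2064, 1703, 1547 and 1270 CPM, and the NB markers to 1216, 1037, 193 and 221 CPM. Of the 47 barcodes, 25 had at least 2 OPC markers and fewer than 2 NB markers, and 5 the reverse. Microglia markers were at 0 in all 4 libraries, astrocyte markers at 258, 296, 442 and 193 CPM, oligodendrocyte markers at 36.9, 555, 166 and 607 and endothelial markers at 0, 0, 249 and 27.6. The G2/M genes summed to 10690, 8738, 8317 and 8448 CPM and the S phase genes to 5787, 3703, 3260 and 1933. Why these barcodes carry no annotation was not tested.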

How the results depend on the processing

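The 19 named gene tests had 164 alternatives, of which 151 kept their direction and their side of the threshold, 9 lost a call, 3 gained one and 1 turned. That was Ccnd2 in striatal oligodendrocytes, at a log2 fold change of -0.085 without Setd1a+/- replicate 1 and 1.58 without Setd1a+/- replicate 2. The calls gained were Ccnd1 in D1 MSN with the block, and Ccne2 in OPC and Ccnd2 in oligodendrocytes without a mutant replicate. The last 2 come from fits with 1 mutant library left, whose spread was assumed to be that of WT. The 37 genes that peak in NB numbered 37 without any single library. Members called between genotypes were 0 in the PFC under all 8 alternatives. In the striatum they were 1 of 134 tests with the replicate block, which pairs same-numbered libraries, against 0.108% of all gene tests. Fits with 1 library left out keep 1 library in a genotype group, so only effect sizes are given for them above. Between tissues they were 4 of 58 tests, against 7.37% of all gene tests. With no filter on low counts they were 12 of 259, against 6.16% of all. With 1 library left out they were 2 to 6 of 59 to 68 tests, against 3.93% to 8.76% of all. They were 2 without striatal WT replicate 2 or Setd1a+/- replicate 1, and 6 without PFC Setd1a+/- replicate 2. Members called by the interaction were 0 under all 3 alternatives, which were chosen after seeing the data. The block changed no other member's call.

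Shares of cells depended more on the library and on the genes counted. The NB share with 3 or more of the 40 genes differed by -0.68 percentage points (Setd1a+/- minus WT), by 2.25 with the 33 S phase and G2/M genes, and by -2.32 to 0.95 with 1 library left out. For PFC OPC it was -0.97, 4.01 with the 33 genes, 4.34 with thinned cells and -6.07 to 4.12 with 1 library left out. For striatal OPC it was 3.11, and -1.60 to 7.81 with 1 library left out. Genes called between genotypes were 4 in the striatum, 79 with the block, 110 with no filter and 67 to 402 with 1 library left out. In the PFC they were 0, 26, 63 and 25 to 122. Between tissues they were 3387, 6957 with no filter and 1901 to 4444 with 1 library left out. Simulated 2-fold genotype changes were recovered for 6.56% of genes in NB, where they lie on the fold cutoff itself, and for 0.54% in PFC OPC.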

Other observations

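Of 16 genes that restrain the cycle 6 had their highest mean in NB, 2 of them without overlap, against 10.1% and 3.12% of all genes with at least 50 UMIs. Cdkn1b, the kinase inhibitor p27, was at 141 CPM in NB, 1.99 times the next type. Gadd45g, a growth arrest gene, was at 1106 CPM. Endothelial cells had the highest means of Cdkn1a, which encodes p21, at 429 CPM in the striatum, and of the antiproliferative Btg2, at 1441 CPM in the PFC. Between genotypes 0 of 63 PFC tests and 0 of 92 striatal tests of these genes were called with edgeR, against 0.00% and 0.00544% of all gene tests. At an unadjusted p under 0.05 there were 2 and 8, against 1.70% and 2.62% of all tests.

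Between tissues 4 of 62 tests of these restraining genes were called, against 7.37% of all gene tests. Cdkn2d, a Cdk4 and Cdk6 inhibitor, was at 71.4, 116, 75.9 and 134.5 CPM in striatal microglia against 19.5, 10.8, 20.3 and 0 in the PFC (log2 fold change 2.61 ± 0.49, SE, edgeR FDR = 0.00417). Cdkn1a was at 58.3, 34.6, 62.8 and 25.5 CPM in striatal interneurons against 11.4, 17.9, 11.1 and 23.2 (1.54 ± 0.39, edgeR FDR = 0.0153). Neither pair of groups overlapped. Gadd45g was at 134, 85.9, 152 and 254 CPM in striatal microglia against 46.1, 54.1, 111 and 24.4, which overlapped (1.26 ± 0.38, edgeR FDR = 0.0335). Cdkn2c, a Cdk4 and Cdk6 inhibitor, was lower in striatal astrocytes, at 6.87, 14.3, 5.63 and 0 CPM against 29.0, 18.3, 34.2 and 29.8 (-1.83 ± 0.53, edgeR FDR = 0.0320). Striatal Setd1a+/- 2 held 24 microglia and 31 astrocytes.

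Of the G2/M genes outside the members, Nuf2, a kinetochore gene, was at 85.8, 57.1, 139 and 202 CPM in striatal astrocytes against 12.1, 0, 17.1 and 8.14 in the PFC (3.51 ± 0.43, edgeR FDR = 3.91e-05). The ependymal markers Foxj1 and Tmem212 summed to 321, 145, 529 and 733 CPM in striatal and 2.41, 3.67, 0 and 0 in PFC astrocytes, and the macrophage markers Mrc1, Pf4 and Cd163 to 462, 314, 326 and 0 in striatal and 14.2, 108, 10.1 and 0 in PFC microglia. The part of these cells in the astrocyte and microglia differences was not tested. Tissue and digestion cannot be told apart.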
